A study of Mus musculus with 2 samples.

Results

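The RNAs described here are 4 non-SINE transcripts of RNA polymerase III (Pol III) in mouse brain, namely 5S rRNA, 4.5S RNA and the Y RNAs listed as HY1 and HY3. They were chosen by name, as the classes called exactly 5S, 4.5SRNA, HY1 and HY3 in 2 lists of brain RNA classes. These were 4 of the 60 classes that either list held, and each of the 4 stood in both lists. The lists come from melRNA-seq, a method in which adaptors are ligated to both ends of medium-length RNAs so that a read can cover a whole RNA. Total RNA came from the brain of adult male C57BL/6J mice, and both groups share this source. In the RppH(+) library, 500 ng of RNA was treated for 1 h at 37 °C with RNA 5′ pyrophosphohydrolase (RppH), an enzyme that turns a 5′ triphosphate or cap into a ligatable 5′ monophosphate, and the RppH(−) library was made from untreated RNA. Library inserts of 113 to 253 bp were taken from the gel. As each condition had 1 library, none of the differences could be checked in a replicate, and the tests below compare the reads of 2 libraries rather than the conditions. No class named BC1, a neuronal RNA on a list of Pol III transcripts, was in either list, and the tissue could not be checked against markers.

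Pol III makes short untranslated RNAs whose primary 5′ end carries a triphosphate. 5S rRNA is part of the large ribosomal subunit and has a promoter inside its gene. 4.5S RNA is a name for small rodent RNAs of unsettled function. Y RNAs fold into a stem and loop, bind the Ro60 protein, have been linked to RNA quality control and DNA replication, and are cut into shorter fragments in many cells. By contrast 5.8S rRNA, the reference in this study, is cut from a longer Pol I precursor and has a 5′ monophosphate without any treatment. The comparison of the libraries therefore asks how far reads of each RNA depend on RppH.

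The genes named for the 4 RNAs were looked up in the mouse assembly GRCm38. Within 100 kb of Rn5s, a 5S gene on chromosome 8, the GENCODE M21 annotation holds 51 rRNA genes, Rn5s included. Rn5s lies in an intron of Gm20388, a protein-coding gene of the opposite strand. The deposited lists give 5S as a class, so reads of different copies are not told apart.

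The genes named for the other 3 RNAs lie on chromosome 6. The class 4.5SRNA was linked to the gene Rn4.5s by name only, and which 4.5S RNA the class stands for was not tested. RefSeq places Rn4.5s from 47654921 to 47655094, inside the span of Gm40369; its strand and its exons there were not used here. Rny3 and Rny1, the genes of the Y3 and Y1 RNAs, are separated by 6.35 kb. Neither Y RNA gene overlaps another gene in GENCODE or RefSeq.

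Relative to 5.8S rRNA, the 4 classes fell into a pair whose level rose with RppH and a pair for which no change was detectable. 5S rose 90.9-fold and 4.5S RNA 42.5-fold, whereas both were lower, at 0.672 and 0.315, relative to the listed reads other than 5.8S. HY3 went from 8 to 10 reads, with no detectable change relative to 5.8S but a lower level, at 0.0136, relative to the listed reads other than 5.8S. HY1 had 1 read in each library. On the scale without 5.8S every ratio is multiplied by the same 0.00740, and 45.8% of the 59 classes passed in either direction, 39.0% as lower, so a lower value there is shared by many classes. Relative to 5.8S, of all 59 classes tested, 23.7% passed an adjusted p of 0.05 in either direction and 22.0% (13 classes) were higher with RppH, against 2 of these 4 higher and none lower. Nothing particular to the 4 is read from this count. Reads were tested by Fisher's exact test (two-sided), and p was adjusted over the 59 classes by the Benjamini-Hochberg method. Over the 3 of the 4 classes for which a ratio was formed the median ratio was 42.5, and over all 20 classes with a ratio it was 33.0. Over the 16 of these with at least 10 reads, which include the same 3, it was 66.7. The 3 ratios are themselves among those that set these medians, so nothing is read from where they lie.

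The depth of each library sets what can be seen. The lists give the reads of each class per 1000000 5.8S rRNA reads, and whole reads were recovered from these values. The RppH(−) library held 122146 reads of 5.8S and 1386 of all other listed classes, and the RppH(+) library 83291 and 127701. The value of 1 read was thus 8.19 per 1000000 5.8S reads in the first library and 12.0 in the second. All intervals are 95% intervals for counting error alone, as each condition had 1 library. They count each read as a separate molecule, although PCR copies are not, so intervals may be too narrow and p-values too small. As the method is built to read RNAs from end to end, levels were not divided by length.

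5S rRNA had 602 reads in the RppH(−) library, a deposited level of 4928 per 1000000 5.8S reads. In the RppH(+) library it had 37300 reads, a level of 447827. The intervals of the recomputed levels, 4542 to 5340 and 442381 to 453335, do not overlap. The ratio between the libraries was 90.9 (95% exact interval 83.8 to 98.7), or 6.51 on the log2 scale, and no p-value is given because it fell below what could be calculated. Its ratio relative to all listed reads was 36.3. 5S was the second most abundant of 33 listed classes without RppH and the third of 49 with RppH.

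4.5S RNA had 11 reads without RppH and 319 after RppH treatment. Its deposited level was 90 per 1000000 5.8S reads without RppH and 3829 with RppH. The interval without RppH, 45.0 to 161, lies far below that with RppH, 3420 to 4275. The ratio was 42.5 (95% exact interval 23.4 to 86.1; Fisher's exact test, adjusted p = 4.22e-107). On the log2 scale the rise was 5.41.

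HY3, the class of the Y3 RNA, had 8 reads without RppH and 10 with RppH. The deposited level was 65 and 120 per 1000000 5.8S reads, and the intervals, 28.3 to 129 and 57.6 to 221, overlap. The ratio was 1.83 (95% exact interval 0.651 to 5.35; Fisher's exact test, adjusted p = 0.544), and relative to all listed reads it was 0.732. A change was thus not detectable relative to 5.8S rRNA, while the interval leaves out a rise of more than 5.35-fold. Relative to the listed reads other than 5.8S, HY3 was lower with RppH, at 0.0136 (Fisher's exact test, adjusted p = 6.77e-11).

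HY1, the class of the Y1 RNA, had 1 read in each library, a deposited level of 8 without RppH and 12 with RppH. No fold is given, because both values are at or under 3 reads, the smallest number taken as measurable (24.6 and 36.0 per 1000000 5.8S reads). The exact interval of its ratio ran from 0.0187 to 115 and so includes the ratio of 5S. At this depth HY1 does not show whether its reads depend on RppH. HY1 and HY3 together went from 9 to 11 reads, which gave a ratio of 1.79 (0.675 to 4.89) relative to 5.8S and 0.716 relative to all listed reads.

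**Figure D1:**
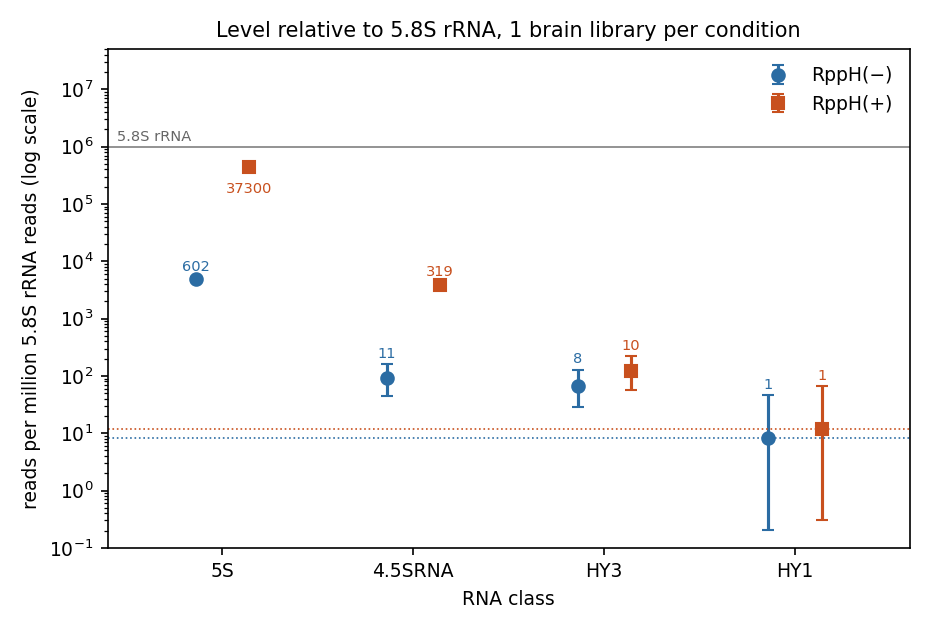
Level of the 4 classes (x axis) in reads per 1000000 5.8S rRNA reads (y axis, log scale) in the RppH(−) library (blue circles) and the RppH(+) library (orange squares), with exact 95% intervals for counting error. Numbers are reads, dotted lines the level of 1 read in each library, and the grey line is 5.8S rRNA. The points of 5S and 4.5SRNA lie far apart between the libraries, whereas the intervals of HY3 and HY1 overlap. All 4 classes, like 39.0% of all 59 classes, passed as lower with RppH relative to the listed reads other than 5.8S.

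The position of these RNAs among the other classes was compared with the 13 other classes with 10 or more reads over both libraries, 5.8S left aside. The 2 classes nearest to 5S in the log2 ratio were U7, at 6.66 with 1 and 69 reads, and U3, at 6.70 with 3 and 213 reads. U7 is an snRNA of histone mRNA processing and U3 a snoRNA of pre-rRNA processing. The 2 nearest to 4.5S RNA were U13, a snoRNA whose 29-to-1 proportion of reads equals that of 4.5S RNA, and B2_Mm2, a B2 SINE class, at 4.55 with 1 and 16 reads. For HY3 they were tRNA-Glu-GAG_, at 1.14 with 4 and 6 reads, and U17, an snoRNA with 58 and 47 reads, at 0.25. The likeness rests on 2 libraries and, for U7, U13 and B2_Mm2, on 1 read in the RppH(−) library. Their exact intervals begin at 17.6, 7.05 and 3.65, so the order around 5S and 4.5S RNA is not resolved.

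**Figure D2:**
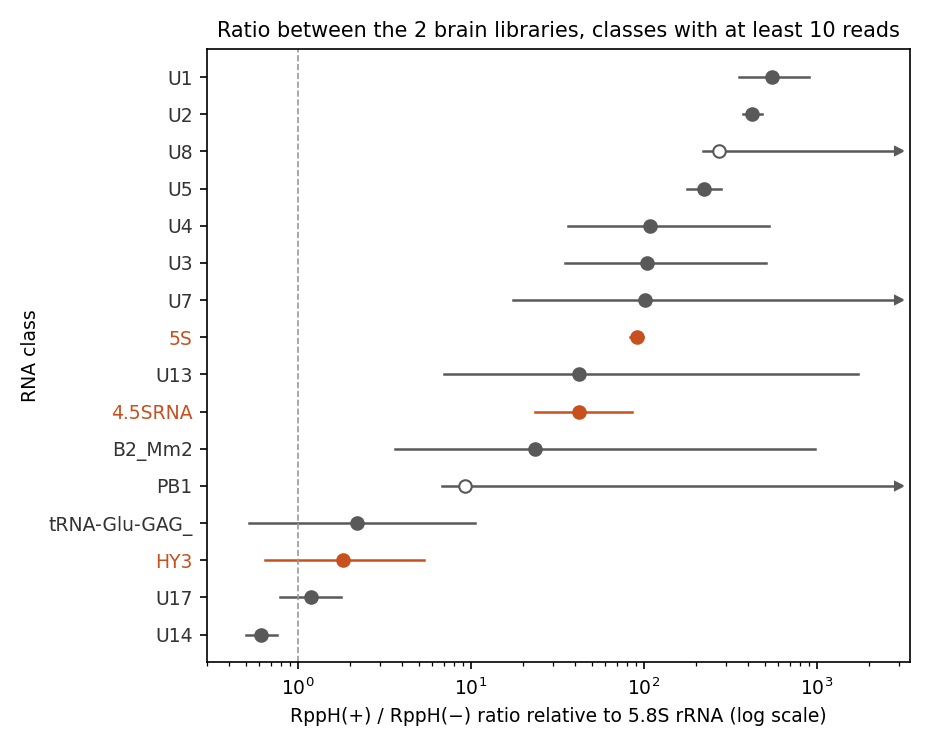
Ratio of the RppH(+) to the RppH(−) level relative to 5.8S rRNA (x axis, log scale) for the 16 classes other than 5.8S with at least 10 reads (y axis), with exact 95% intervals; orange marks the classes described here, open circles a ratio computed against 3 reads because the RppH(−) library had none, and arrows intervals that go on beyond the axis. 5S (90.9) and 4.5SRNA (42.5) lie right of the dashed line at 1, and the interval of HY3 (0.651 to 5.35) crosses it. Relative to the listed reads other than 5.8S, 12 of the 16 ratios were below 1, these 3 included. The 12 also include PB1, whose ratio was computed against 3 reads, although its share of these listed reads rose from 0 to 0.0149%.

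Whether the 4 RNAs differ in their dependence on RppH was tested with 5S in place of 5.8S as the reference. This reference asks whether a class kept its proportion to 5S, whose primary 5′ end is a triphosphate. In the RppH(−) library there were 13.3 HY3 reads per 1000 5S reads (95% exact interval 5.71 to 26.4). In the RppH(+) library there were 0.268 (0.129 to 0.493). The proportion of HY3 to 5S was thus 49.6-fold lower with RppH (exact interval 16.9 to 140; Fisher's exact test, adjusted p = 1.20e-09). HY3 itself had 8 reads without RppH and 10 with RppH. On the same scale 5.8S rRNA, whose end needs no RppH, was at a ratio of 0.0110 (0.0101 to 0.0119), within the interval of the HY3 ratio (0.00715 to 0.0591). Of the 59 classes tested relative to 5S, 35.6% passed in either direction and 28.8% were lower with RppH. Among the other 3 RNAs, HY3 passed this test and was lower, and 4.5S RNA and HY1 did not pass it.

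The proportion of 4.5S RNA to 5S moved less. It was 18.3 per 1000 5S reads (9.07 to 32.9) without RppH and 8.55 (7.64 to 9.55) with RppH, and these intervals overlap. The ratio was 0.468 (95% exact interval 0.256 to 0.952). Fisher's exact test gave p = 0.0231 before and 0.0620 after adjustment over 59 classes. Adjusted only over classes with at least 10 reads, an alternative added after the data were seen, it was 0.0370, so the call depends on which classes are counted. It rests on 11 reads of 4.5S RNA in the RppH(−) library.

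HY1 had 1 read against 602 of 5S in the RppH(−) library and 1 against 37300 in the RppH(+) library. The exact interval of the ratio ran from 2.06e-04 to 1.27 (Fisher's exact test, adjusted p = 0.0690). For HY1 and HY3 together the ratio was 0.0197 (0.00741 to 0.0541), which is nearly the value of HY3 alone.

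With 4.5S RNA as the reference, HY3 was again lower with RppH. There were 8 HY3 reads to 11 of 4.5S RNA without RppH and 10 to 319 with RppH. The proportion was 23.2-fold lower with RppH (95% exact interval 6.45 to 79.5; Fisher's exact test, p adjusted over 59 classes = 3.69e-06). Of these 59 classes, 22.0% passed in either direction and 15.3% were lower relative to 4.5S RNA. HY1 against 4.5S RNA had an adjusted p of 0.155 from the same exact test.

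**Figure D3:**
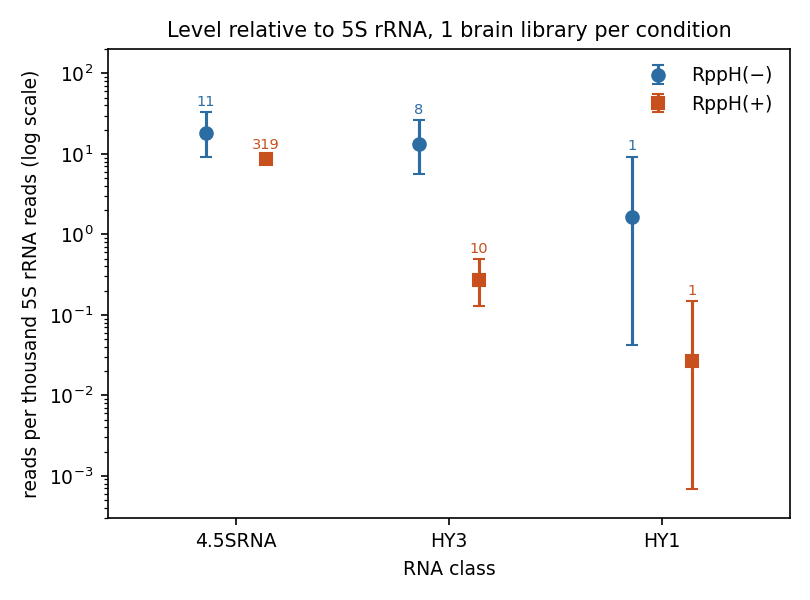
Level of 4.5SRNA, HY3 and HY1 (x axis) in reads per 1000 5S rRNA reads (y axis, log scale) in the RppH(−) library (blue circles) and the RppH(+) library (orange squares), with exact 95% intervals for counting error and the number of reads. The proportion of HY3 to 5S falls from 13.3 to 0.268, with 8 and 10 HY3 reads. The intervals of 4.5SRNA overlap, and those of HY1 are wide because each library held 1 read.

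The order of the 4 RNAs was the same in both libraries, but the gap between 4.5S RNA and HY3 was not. Without RppH, 5S had 54.7 times the reads of 4.5S RNA, and 4.5S RNA and HY3, with 11 and 8 reads, did not differ beyond counting error (p = 0.648 from an exact binomial test, two-sided). With RppH, 5S had 117 times the reads of 4.5S RNA, and 4.5S RNA 31.9 times those of HY3 (p = 6.73e-81 from the same exact test). HY3 exceeded HY1 with 8 against 1 read without RppH (p = 0.0391, exact) and 10 against 1 with RppH (p = 0.0117, exact). Within the reads of the 4 RNAs, the Y RNAs together made up 1.45% (95% Wilson interval 0.763 to 2.73%) in the untreated library and 0.0292% (0.0163 to 0.0523%) in the treated one. The share of 5S was 96.8% (95.1 to 97.9%) and 99.1% (99.0 to 99.2%). These are proportions of reads, and fewer cells with an RNA cannot be told apart from less of it per cell.

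The genes named for the 4 RNAs also differ in whether their annotated length falls within the selected insert range. RefSeq gives 121 nt for Rn5s and 174 nt for Rn4.5s, within the selected insert range of 113 to 253 bp. As Rn4.5s was linked to 4.5SRNA by name only, 174 nt may not be the length of the RNA that was read. Rny1 has 111 nt and Rny3 101 nt, both below that range. The part of this size selection in the Y RNA values was not tested, as no read lengths were used here.

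**Figure D4:**
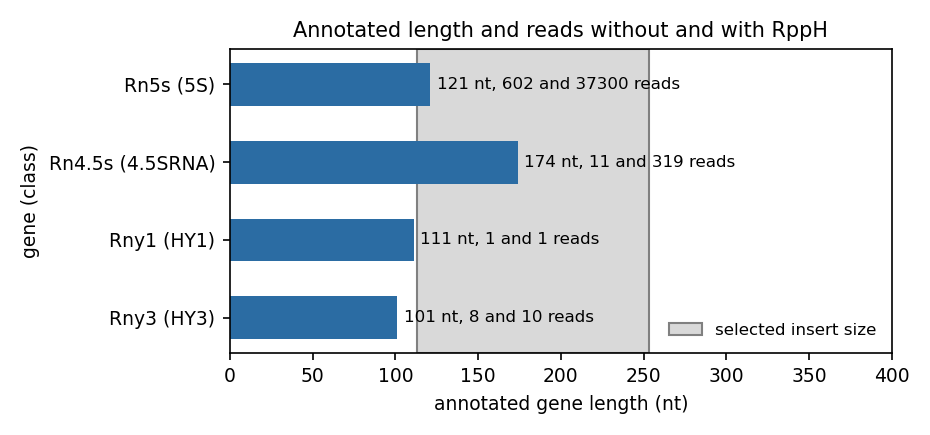
RefSeq gene length in nt (x axis) of the genes named for the 4 classes (y axis), with the selected insert size of 113 to 253 bp in grey and the reads in the RppH(−) and then the RppH(+) library beside each bar. Rn5s (121 nt) and Rn4.5s (174 nt) end within the range, and Rny1 (111 nt) and Rny3 (101 nt) below it. Rn4.5s was linked to 4.5SRNA by name only, so the length of the RNA that was read may differ.

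The other Pol III transcripts of the lists were described as a group of 17 classes, namely U6, 6 tRNA classes and 10 SINE classes. Of the 7 single RNAs looked for by name, 6 had no entry in either list (7SK, 7SLRNA, HY4, HY5, BC1_Mm and BC200). Nothing is read from these absences, and RefSeq holds only 2 Y RNA genes, Rny1 and Rny3. Relative to 5.8S rRNA, 3 of the 17 were higher with RppH and none lower, against 22.0% and 1.69% of all 59 classes. The 3 were the SINE classes PB1 (0 and 19 reads), B2_Mm2 (1 and 16 reads) and B2_Mm1t (0 and 8 reads). U6, a spliceosomal RNA whose 5′ triphosphate is methylated, went from 6 reads to 1, at a ratio of 0.244 (0.00531 to 2.01). The tRNAs, cut at the 5′ end by RNase P, had 13 and 7 reads in all.

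Set against 5S, 7 of these 17 classes passed Fisher's exact test after adjustment as lower with RppH, and none as higher, against 28.8% and 6.78% of all 59 classes. They were U6, 5 of the 6 tRNA classes and 1 SINE class. Of these 7, 4 had 1 or 2 reads in all, under the 3 reads taken as measurable, and only tRNA-Glu-GAG_ had at least 10. U6 was at 0.00269 of its former proportion to 5S (exact interval 5.85e-05 to 0.0223), and the tRNAs together were at 0.00869 (0.00293 to 0.0236). HY3, at 0.0202 (0.00715 to 0.0591), falls within both intervals, so its order against U6 and the tRNAs is not resolved. The lengths of U6 and the tRNAs were not looked up, so the part of size selection in their values was not tested either. The SINE classes together were at 0.307 (0.0993 to 1.54), an interval that includes 1 and that of 4.5S RNA.

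Relative to 5S, counts of called classes were also taken in lists of RNAs not made by Pol III. Of 5 capped snRNA classes, 3 had a higher proportion to 5S with RppH (U1, U2 and U5) and none a lower one. Of 5 snoRNA classes, the proportion to 5S was higher for U8 and lower for U14 and U17. Over all 59 classes it was higher in 6.78% and lower in 28.8%. The names in these counts were picked with their values in view.

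The share of the 4 RNAs in all other listed reads gives a scale without 5.8S. Of the listed reads other than 5.8S, 43.4% were 5S in the untreated library (95% Wilson interval 40.8 to 46.1%) and 29.2% in the treated one (29.0 to 29.5%). 4.5S RNA made up 0.794% (0.444 to 1.42%) and 0.250% (0.224 to 0.279%). HY3 made up 0.577% (0.293 to 1.13%) and 0.00783% (0.00425 to 0.0144%). On this scale 5S, 4.5S RNA and HY3 were all lower with RppH, and Fisher's exact test gave an adjusted p of 1.02e-27, 0.00463 and 6.77e-11 in that order, while 39.0% of all 59 classes were lower by the same test. HY1, at 1 read in each library, also passed as lower (exact test, adjusted p = 0.0467), as did the other classes with 1 read in each. The base of these shares is itself made mostly of RNAs that rose relative to 5.8S. U2 alone went from 17.4% to 54.4% of it, and 5S is part of it. A lower share on this scale therefore gives a proportion to the other listed RNAs, and not a fall in the level of 5S or 4.5S RNA.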

How the data were processed

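Both brain libraries were sequenced on a MiSeq in the 300-bp single-end mode. Per the paper's methods, reads in which cutadapt found the adaptor were kept, trimmed and assigned to classes by repeatmasker, with a 5.8S rRNA sequence added to its library. For normalization the methods count only 5S and 5.8S reads that are nearly full length. Whether the listed 5S reads passed this filter, and whether one was applied to 4.5SRNA, HY1 and HY3, was not tested, so proportions to 5S and 5.8S may compare reads selected differently. Versions are not given in the sources used here. Each deposited value is a score, the reads of a class per 1000000 5.8S rRNA reads of the same library, written by the authors as whole numbers.

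Whole reads were recovered on the assumption that decimals were dropped, by trying each 5.8S total from 50000 to 400000 and taking the lowest at which every value was a whole number of reads. For RppH(−) these were 6 neighbouring totals (122144 to 122149), all giving the other classes the same reads, and 122146 was used. For RppH(+) it was 83291. Higher totals gave multiples of the same reads. Rounding in place of dropping was tried only over the lower part of this range, which includes the totals used. There, no total made more than 28 of 33 and 47 of 49 whole. Higher totals were not tried with rounding.

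Ratios are RppH(+) over RppH(−), tested with Fisher's exact test, two-sided, and Benjamini-Hochberg adjustment over the 59 classes other than the reference. Their intervals (95%) are exact for the conditional odds ratio. Levels have Clopper-Pearson and shares Wilson intervals. A class with 0 reads was set to 3 reads, and no ratio was formed with 3 reads or fewer in both libraries. The scripts (Python 3.11.15, NumPy 2.4.6, SciPy 1.17.1, Matplotlib 3.10.9) were tested on simulated data. Named classes were these 4, the other Pol III classes, and the 2 classes of nearest log2 ratio for 5S, 4.5S RNA and HY3. U1, U2, U5, U8 and U14, outside this rule, were named after their values were seen. The members, lists and tests were chosen with earlier results of these data known. Genes were linked to classes by name in GENCODE M21 and RefSeq, both on GRCm38. Gene sequences and the features planned from them are not reported here. Alternatives were other denominators, raw reads, a pseudocount of 0.5 reads, the deposited values, a filter at 10 reads and Clopper-Pearson shares.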

Additional observations from a re-analysis of the deposited data

How the results depend on the processing

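Of 31 alternative values of the ratios, 24 kept their direction and their side of the threshold. These 24 include every alternative with a pseudocount or the deposited values, which reuse the same test. The count is therefore no measure of how stable the ratios are. Relative to all listed reads other than 5.8S, the ratios reversed to 0.672 for 5S, 0.315 for 4.5S RNA, 0.0136 for HY3 and 0.0133 for HY1 and HY3 together. Relative to all listed reads, 5S (36.3) and 4.5S RNA stayed above 1, but HY3 (0.732) and both Y RNAs together (0.716) reversed. Each such denominator multiplies every ratio by the same factor. The proportion of 4.5S RNA to 5S, 0.468, passed the threshold only when p was adjusted over fewer classes (0.0370 against 0.0620 from Fisher's exact test). The number of classes lower with RppH was 4 relative to all listed reads against 1 relative to 5.8S. Relative to 5S it was 6 among classes with at least 10 reads against 17, since fewer classes were then tested. As shares of the listed reads other than 5.8S, values rose from 0.487% to 43.4% for 5S and from 0.00648% to 0.577% for HY3 without RppH, because 5.8S holds most listed reads. Adding a pseudocount or taking values as deposited cannot change the test, which uses the reads, and all 14 levels computed from the deposited values stayed within their intervals. For HY1 alone no ratio was formed, so its alternatives gave no value. The 8 and 11 reads of HY3 and 4.5S RNA without RppH limit the precision of the comparisons between them. No paired analysis was possible because treated and untreated RNA gave 1 library each.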
